A study of Mus musculus with 3 samples.

Results

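Killer lymphocytes destroy target cells with a small set of proteins, and 7 genes of that set are described here across the lymphocytes of healthy and neoplastic mouse colon: Gzma, Gzmb and Gzmk (granzymes), Prf1 (perforin), Nkg7 (a granule membrane protein), Fasl (Fas ligand) and Ifng (interferon-gamma). They were taken by symbol from the 30905 genes of the count tables. All 7 were present, and each symbol stood for 1 gene. CD45-positive cells, that is, cells of blood-forming origin, were sorted from colon and sequenced as single cells with the 10x Genomics 3' V3.1 chemistry. The 3 libraries are named C for healthy tissue, T1 for tissue that carried low-grade intraepithelial neoplasia and T3 for tissue in which the neoplasia was high-grade.

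All mice were C57BL/6 and are labelled male. The T1 and T3 mice entered the model at 6 to 8 weeks of age. They were injected into the peritoneum with azoxymethane, a carcinogen, at 12 mg/kg, and then had 3 cycles of 7 days of 2.5% dextran sodium sulfate, which injures the colon lining, and 14 days of water. The C mouse or mice were healthy, and the labels give the same age entry for them. The labels do not say whether a library pooled several mice. The carcinogen, the colitis and the neoplasia came together, so their parts cannot be told apart. With 1 library per group nothing between groups has a replicate check. All intervals below are 95% intervals that cover counting error only, and no p-values are given.

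Granzymes are serine proteases stored in cytotoxic granules. When such a cell meets its target, perforin opens the target's membrane, and the granzymes pass through to cleave proteins that set off cell death. Granzyme B cleaves caspases, and granzyme A acts by other routes. Granzyme K is typical of less differentiated effector T cells. Nkg7 sits in the granule membrane and takes part in granule release. Fas ligand works without granules, by binding the death receptor Fas, and interferon-gamma is a secreted cytokine that acts on surrounding cells. In the gut these genes are known from intraepithelial CD8 and gamma-delta T cells and from natural killer cells, and regulatory T cells can also carry granzyme B.

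In the mouse genome build GRCm38 with the GENCODE M21 annotation, Gzma (ENSMUSG00000023132) lies on chromosome 13 from 113093825 to 113100981 and Gzmk (ENSMUSG00000042385) on the same chromosome from 113171608 to 113225908, both on the minus strand. Gzmb (ENSMUSG00000015437) lies on chromosome 14 from 56258838 to 56262260 on the minus strand. Prf1 (ENSMUSG00000037202) lies on chromosome 10 from 61297833 to 61304680 and Ifng (ENSMUSG00000055170) on the same chromosome from 118441046 to 118445892, both on the plus strand. Nkg7 (ENSMUSG00000004612) lies on chromosome 7 from 43437073 to 43438249 on the plus strand, and Fasl (ENSMUSG00000000817) on chromosome 1 from 161780689 to 161788495 on the minus strand. The span of Gzmk overlaps Esm1, which lies on the other strand.

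All 7 genes matched an entry in the RefSeq promoter table of GRCm38.p6. The 250 bases before the starts of Gzmb and Prf1 are shown because these partners in granule killing parted in CD8 barcodes of T3, where Gzmb was called lower than in C and Prf1 was not. Capitals mark exact matches, on either strand, to the Runx core TGTGGT, the AP-1 site TGANTCA or the Ets core GGAAGT. None of the marked matches overlaps another.

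Gzmb (chr14:56262335-56262584, minus strand): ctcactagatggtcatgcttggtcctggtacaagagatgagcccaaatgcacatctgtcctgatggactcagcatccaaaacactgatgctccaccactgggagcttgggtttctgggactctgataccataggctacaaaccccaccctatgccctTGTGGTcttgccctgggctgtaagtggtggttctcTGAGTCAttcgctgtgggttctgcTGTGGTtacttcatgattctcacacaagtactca

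Prf1 (chr10:61297586-61297835, plus strand): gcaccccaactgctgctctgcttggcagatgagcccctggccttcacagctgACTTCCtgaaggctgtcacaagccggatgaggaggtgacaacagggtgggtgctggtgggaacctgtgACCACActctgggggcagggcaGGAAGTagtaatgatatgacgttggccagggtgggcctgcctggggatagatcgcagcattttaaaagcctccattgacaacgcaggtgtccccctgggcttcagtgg

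The Gzmb window held 2 Runx cores, whose first bases lay 93 and 34 bases before the start, and 1 AP-1 site at 58 bases. The Prf1 window held 1 Runx core at 130 bases and 2 Ets cores at 198 and 108 bases, and no AP-1 site. Among the other members, Gzma had a Runx core at 50 bases and Nkg7 a Runx core at 83 bases. The T-box core GGTGTG was found in Gzmk at 75, Nkg7 at 13 and Fasl at 190 bases, and an Ets core in Gzmk at 110 and Fasl at 26 bases. Ifng had none of the 4. Of 32851 promoters of the same length, 14.0% held the Runx core, 16.3% the T-box core, 6.75% the AP-1 site and 19.7% the Ets core. These are letter matches, and no binding was measured.

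After filtering, 5935, 6140 and 4542 cell barcodes were kept in C, T1 and T3, with medians of 4913, 5272 and 1801 unique molecular identifiers (UMIs, which count captured RNA molecules). T3 stood apart: 1771 of its kept barcodes held 3 or more haemoglobin UMIs, against 22 in C and 9 in T1. The caller for doublets removed 69 barcodes in C but 3 in T1 and 1 in T3, so doublets are likely to remain in the neoplastic libraries. Pairs of libraries shared 35 to 39 barcode sequences. The male label went against the transcripts: Xist UMIs were found in 87.3%, 86.4% and 75.5% of kept barcodes of C, T1 and T3, and UMIs of 4 Y-linked genes in 0, 1 and 1 barcodes.

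Barcodes with a UMI of Cd3d, Cd3e or Cd3g were called CD3-positive. They numbered 2790, 2645 and 2740 and were split by 4 lineage genes. Cd8b1 alone defined the CD8 class (371, 334 and 480 barcodes in C, T1 and T3), Trdc alone the gamma-delta class (332, 119 and 71), Foxp3 the Foxp3 class (62, 308 and 85), and Cd4 without Foxp3 the CD4 class (403, 729 and 565). Barcodes with UMIs of more than 1 lineage (68, 81 and 82) or of none (1554, 1074 and 1457) were kept apart. CD3-negative barcodes with an Ncr1 or Klrb1c UMI, 73, 30 and 14 in number, formed the NK/ILC class of natural killer and innate lymphoid cells. The level of a gene is its share of the UMIs summed over a class, scaled to 1000000 (counts per 1000000, CPM). A gene was tested between 2 libraries where they held at least 20 of its UMIs together. It was called where the levels were at least 2-fold apart and the interval of their ratio did not include equality.

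Free RNA was gauged in B-cell barcodes, which should lack these transcripts. There the 7 genes stood between 0 and 7.73 CPM. After each barcode was thinned to 1000 UMIs, at most 0.790% of B-cell barcodes (Nkg7 in C, median 4785 UMIs before thinning) held a UMI of any member. The share before thinning was highest for Gzma in C, at 91 of 2307 barcodes.

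Over all CD3-positive barcodes, 6 of the 7 genes were lower in T3 than in C, and Prf1 was the exception. The level of Gzma was 465 CPM in C, 244 in T1 and 40.1 in T3, and that of Ifng was 244, 116 and 20.7 CPM. Gzmb stood at 193, 285 and 17.7 CPM, so that T1 held the highest level and T3 the lowest. Prf1 stood at 16.1, 17.6 and 24.3 CPM. In T3 against C the called genes had log2 ratios between -3.56 (Ifng) and -1.45 (Fasl), while Prf1 was 0.59 (0.33 to 0.84) and not called. In T1 against C 1 of 7 was called lower, Ifng with a log2 ratio of -1.07, and none higher. Of all genes tested in these barcodes, 10.5% were called lower and 4.7% higher in T3, and 3.72% and 2.63% in T1. Between T3 and T1, 5 members were called lower and none higher, where 7.71% and 3.83% of all genes were. These ratios and all others against healthy colon share the C library, so T1 and T3 are not independent of each other.

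**Figure D1:**
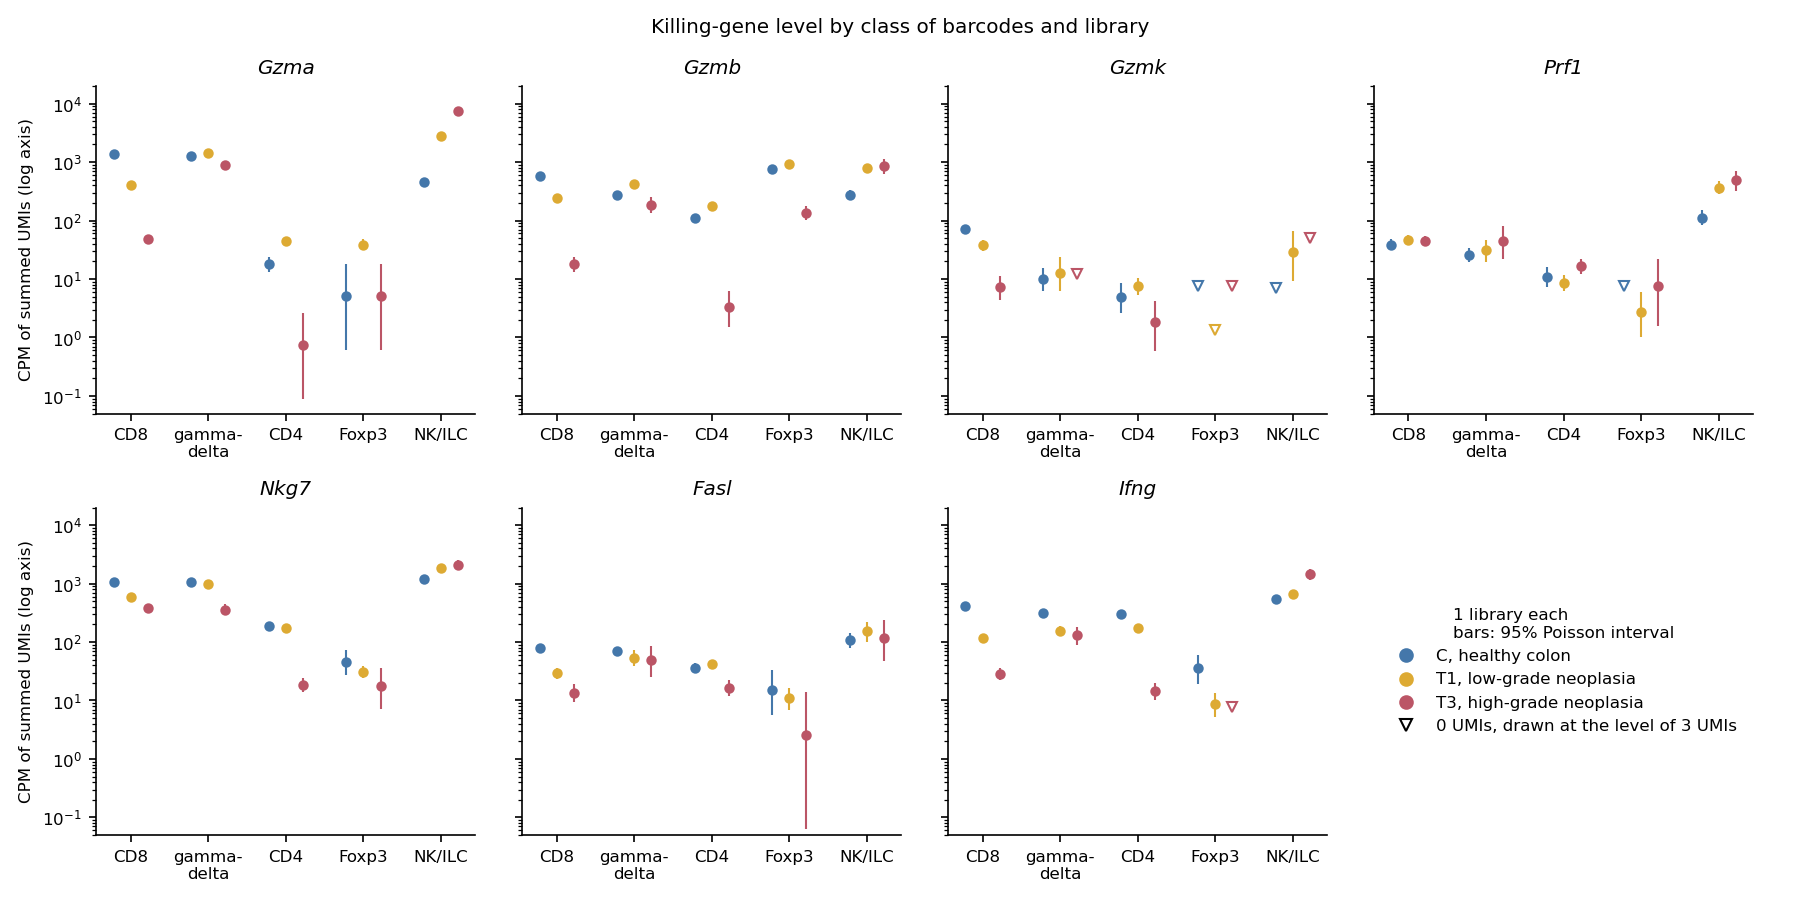
Level of each of the 7 genes (CPM of summed UMIs, log axis) in 5 classes of barcodes, with 1 point per library, 95% Poisson bars, and open triangles at the level of 3 UMIs where none was counted. CD8 levels of Gzma fell from 1355 CPM in C to 47.9 in T3, while Prf1 stayed between 38.7 and 47.1 CPM.

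CD8 T cells, the classical killer T cells, held lower levels of most members in both neoplastic libraries. Of the 7 genes, 4 were called lower in T1 than in C and 6 were called lower in T3, with none called higher in either. Among all genes tested in CD8 barcodes, 5.65% were called lower and 0.838% higher in T1, and 7.97% and 3.25% in T3. Between T3 and T1, 5 members were called lower and none higher, where 2.45% and 4.72% of all genes were. The median log2 ratio of the 7 genes was -1.28 in T1 and -3.31 in T3, against -0.25 and -0.14 over all genes tested. None of these CD8 counts moved by more than 1.5 times under the alternatives run.

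Gzma in CD8 barcodes stood at 1355 CPM in C (1309 to 1402), 410 in T1 (386 to 436) and 47.9 in T3 (39.9 to 57.1). It was found in 98 of 371, 43 of 334 and 17 of 480 barcodes. The 3 libraries fell in the order C, T1, T3 and their counting intervals did not overlap. The T3 level was 28.3-fold below that of C, a log2 ratio of -4.82 (-5.09 to -4.56), and the T1 ratio was -1.72 (-1.82 to -1.62). A single T3 barcode held 74.6% of the T3 UMIs, and without the richest barcode of each library the T3 ratio was -6.89.

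Gzmb, whose product activates caspases in the target cell, followed the same order in CD8 barcodes, at 589, 242 and 17.9 CPM. It was found in 113, 58 and 9 barcodes. Against C the log2 ratio was -1.28 (-1.42 to -1.14) in T1 and -5.04 (-5.49 to -4.62) in T3, or 32.9-fold lower. After thinning, 19.8%, 12.4% and 0.456% of CD8 barcodes held Gzmb. The thinned T1 ratio of -0.93 no longer passed the 2-fold limit, while the T3 call held.

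Gzmk was mainly a CD8 transcript. It stood at 71.6 CPM in C, 37.5 in T1 and 7.23 in T3 and was found in 82, 42 and 10 barcodes. The T3 ratio was -3.31 (-4.07 to -2.62), and the T1 ratio of -0.93 (-1.30 to -0.57) stayed short of 2-fold. Elsewhere its highest levels were 28.5 CPM in T1 NK/ILC barcodes, from 5 UMIs, and 20.7 CPM in barcodes of mixed lineage in C, from 10 UMIs.

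Prf1 did not follow the granzymes. In CD8 barcodes its levels were 38.7, 47.1 and 45.3 CPM, from 93, 123 and 119 UMIs spread over 73, 83 and 91 barcodes. The intervals of the 3 libraries overlapped. The log2 ratio to C was 0.28 (-0.12 to 0.69) in T1 and 0.23 (-0.18 to 0.63) in T3, and neither was called. Over the 12 alternatives the T3 ratio ranged from 0.07 to 0.68. In B-cell barcodes Prf1 stood at 1.43, 1.62 and 2.03 CPM.

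Nkg7 was the member found in most CD8 barcodes, 303 of 371 in C, 269 of 334 in T1 and 283 of 480 in T3. Its level was 1050, 594 and 389 CPM. The T3 ratio of -1.43 (-1.54 to -1.33) was called, and the T1 ratio of -0.82 was not. Nkg7 therefore fell in T3 by less than either Gzma or Gzmb did in the same barcodes. Fasl stood at 77.8, 29.1 and 13.7 CPM in CD8 barcodes, with called log2 ratios of -1.42 in T1 and -2.51 in T3. With the stricter definition of the CD8 and gamma-delta classes, the T1 ratio of Fasl was -0.92 and the call ended. Ifng stood at 419, 116 and 28.2 CPM, with called ratios of -1.85 and -3.90. Ifng UMIs were found in 130, 56 and 29 CD8 barcodes.

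**Figure D2:**
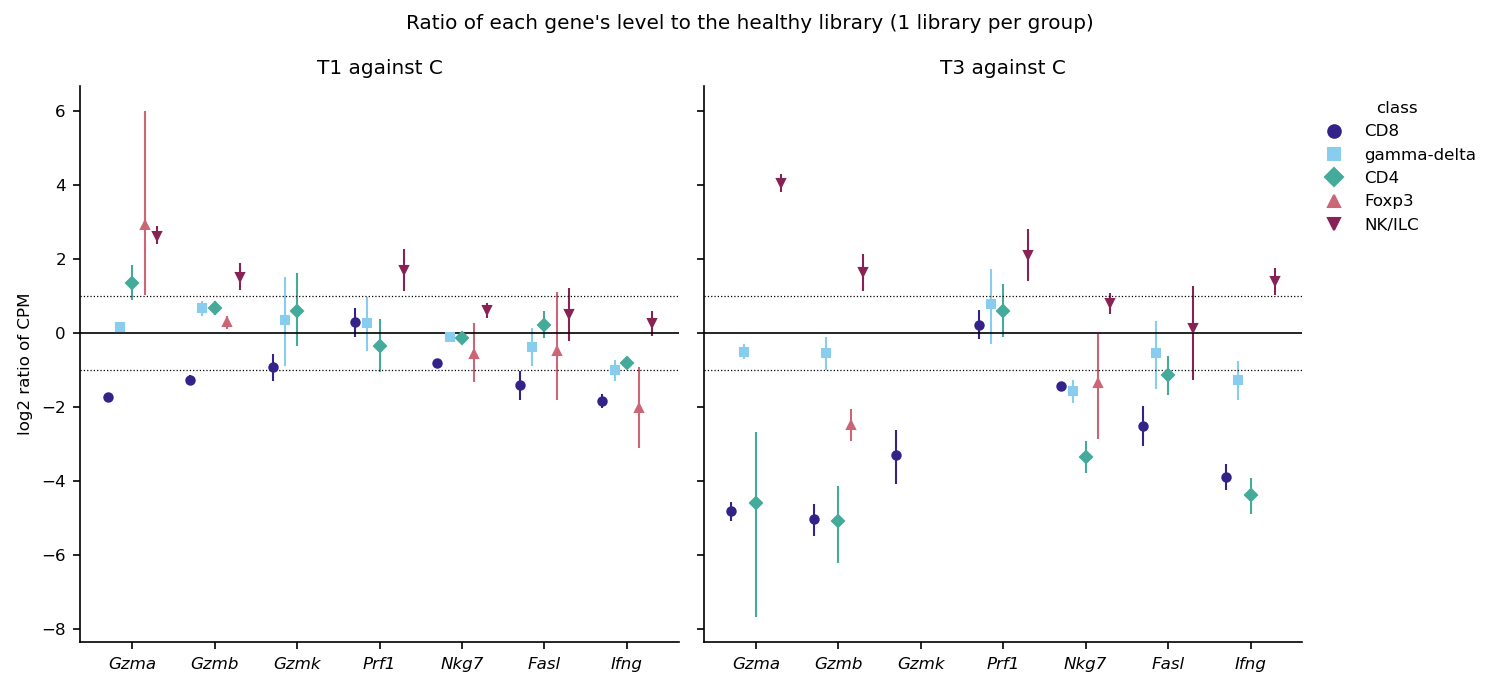
Log2 ratio of the level in T1 (left) and T3 (right) to that in C for each gene, with 1 symbol per class of barcodes, 95% intervals from counting error, and dotted lines at the 2-fold limit. The CD8 and CD4 symbols of Gzma, Gzmb and Ifng lie between -5.09 and -3.90 in T3, the NK/ILC symbols of the same genes lie between 1.41 and 4.06, and Prf1 is not below 0 in any tested class there.

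The CD8 classes of the libraries did not hold the same kinds of cells. Ccr7 and Lef1 are genes of resting T cells that recirculate through lymph nodes. A UMI of at least 1 of them was found in 182 of 371 CD8 barcodes in C (49.1%), 257 of 334 in T1 (76.9%) and 391 of 480 in T3 (81.5%). Their summed level in CD8 barcodes was 331, 710 and 792 CPM. Haemoglobin genes stood at 0, 0 and 3851 CPM, and 184 of the 480 T3 barcodes held at least 3 haemoglobin UMIs. Neutrophil markers stood at 7, 3 and 959 CPM.

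In the CD8 barcodes without a UMI of either resting-cell gene (189, 77 and 89 barcodes), T1 and C lay closer together. Gzma stood at 2637 CPM in C, 1939 in T1 and 81.0 in T3, and Gzmb at 1153, 992 and 126 CPM. None of the 7 genes was called between T1 and C in these barcodes, where 3.14% of all genes were called lower and 1.42% higher. The log2 ratios there were -0.44 for Gzma, -0.22 for Gzmb and -0.85 for Ifng. In T3, 5 members were still called lower than in C and none higher, where 8.14% and 4% of all genes were. They were Gzma (-5.03), Gzmb (-3.19), Ifng (-2.49), Nkg7 (-1.29) and Fasl (-1.08). The T3 barcodes of this kind were shallow, with a median of 1258 UMIs against 5858 in C and 6290 in T1. After thinning to 1000 UMIs, Gzmb was found in 35.5% of them in C, 37.8% in T1 and 1.61% in T3, and Nkg7 in 68.3%, 70.3% and 35.5%.

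In the CD8 barcodes with such a UMI, the granzymes were low in every library and lowest in the neoplastic ones. Gzma stood at 286, 42.3 and 45.3 CPM and Gzmb at 118, 61.8 and 9.05 CPM. The barcode that held most of the T3 Gzma UMIs of the CD8 class lay here, so the T3 level of Gzma came mainly from it. Prf1 stood at 29.7, 42.8 and 43.6 CPM there, so perforin transcripts were present in resting-type CD8 barcodes that held few granzyme transcripts. Nkg7 was also kept in them, at 614, 419 and 369 CPM. When barcodes with 3 or more haemoglobin UMIs were left out of the whole CD8 class, the T3 ratios to C were -4.55 for Gzma, -5.05 for Gzmb, -3.65 for Ifng and 0.34 for Prf1. The part of depth and of the makeup of the class in these values was not tested beyond these splits.

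**Figure D3:**
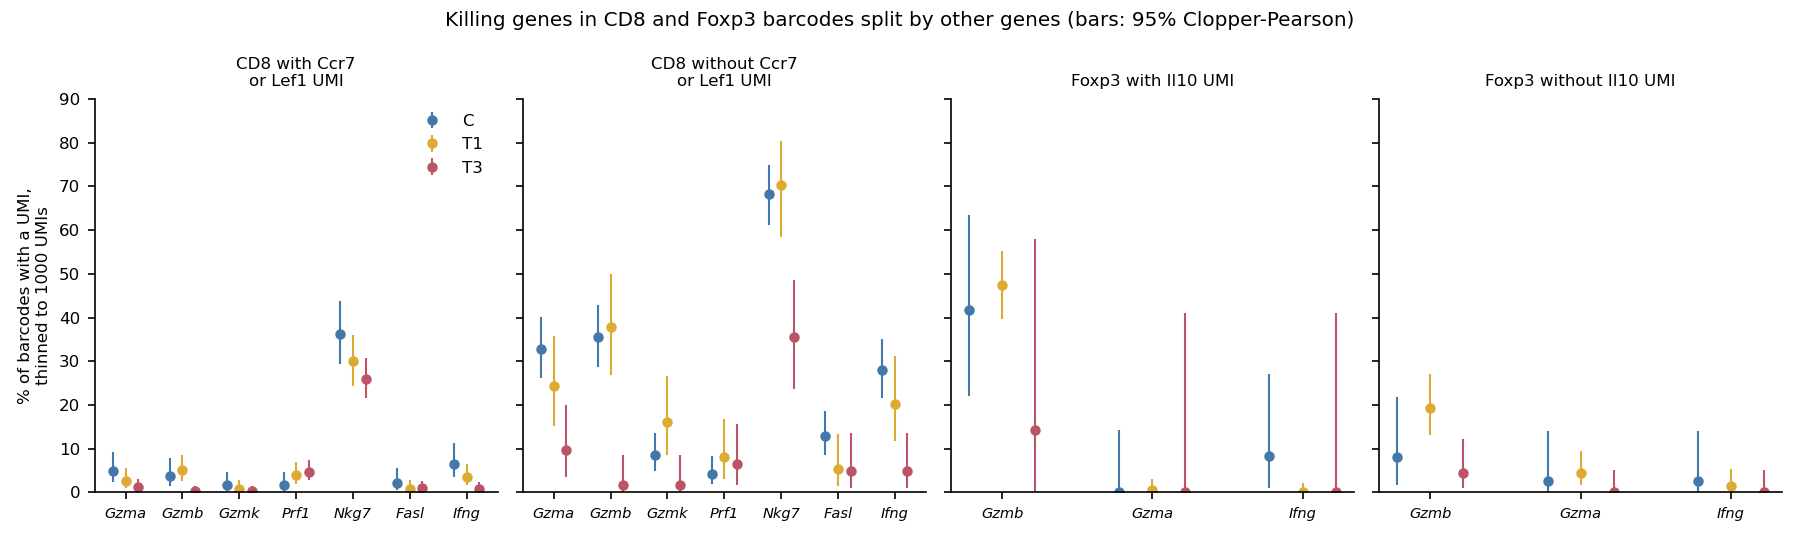
Share of barcodes with a UMI after thinning to 1000 UMIs (percent, 95% Clopper-Pearson bars), in CD8 barcodes with and without a UMI of Ccr7 or Lef1 (left pair) and Foxp3 barcodes with and without an Il10 UMI (right pair), coloured by library. Without the resting-cell genes, Gzmb was found in 35.5% of CD8 barcodes in C and 37.8% in T1 but 1.61% in T3.

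Gamma-delta T cells, many of which live among the epithelial cells of the gut, held Gzma at 1250 CPM in C, 1410 in T1 and 882 in T3. It came from 56 of 332, 22 of 119 and 5 of 71 barcodes, so few cells held most of the transcript, and 1 T3 barcode held 61.5% of the T3 UMIs. Gzmb stood at 270, 429 and 186 CPM. Neither of these granzymes was called against C in either library. Without the richest barcode of each library both were called lower in T3, Gzma at -1.60 and Gzmb at -1.98. Gzma was also called lower there after thinning, at -1.19. Over the 12 alternatives the T3 ratios ranged from -1.60 to 0.23 for Gzma and from -1.98 to 0.24 for Gzmb. Of the 7 genes, 1 was called lower in T1 (Ifng) and 2 in T3 (Nkg7 and Ifng), and none was called higher. Of all genes tested, 2.2% were called lower and 1.49% higher in T1, and 7.54% and 5.65% in T3. In T3 against C the count of members called lower was 5 without the richest barcode of each gene. With each barcode weighted equally it was 6, but there a call used the 2-fold limit alone, without an interval. Between T3 and T1, 2 of 6 were called lower, Gzmb and Nkg7, and none higher, where 7.39% and 5.22% of all genes were.

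Nkg7 in gamma-delta barcodes stood at 1062, 983 and 356 CPM, a log2 ratio of -1.58 (-1.90 to -1.27) in T3. Ifng stood at 310, 155 and 129 CPM. Its T1 ratio of -1.01 was at the limit and stayed short of it under 7 alternatives, with values of -0.99 to -0.62. Its T3 ratio of -1.26 was -0.76 without the mitochondrial limit. Gzmk had no UMI in the 71 T3 barcodes, which allows a share of up to 4.23% of barcodes with a UMI at their low depth. The T3 class was shallow, with a median of 1737 UMIs against 6115.5 in C and 6225 in T1, and 38 of its 71 barcodes held at least 3 haemoglobin UMIs. Ccr7 and Lef1 summed to 76.4, 273 and 845 CPM in the class, in 28.0%, 40.3% and 73.2% of barcodes, and NK and ILC1 markers to 345, 314 and 56.6 CPM. Their part in the T3 values was not tested.

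The gamma-delta granzymes Gzma and Gzmb followed Cd8a, a gene that gut intraepithelial T cells express, in C and T1 but Gzma did not in T3. In C, 56 of 332 gamma-delta barcodes held a Cd8a UMI, in T1 18 of 119 and in T3 5 of 71. Gzma in those stood at 4769 CPM in C (28 of 56 barcodes) and 7145 in T1 (9 of 18), and it was in none of the 5 in T3. Without Cd8a it stood at 550, 267 and 942 CPM. Gzmb stood at 785 and 752 CPM with Cd8a in C and T1, and at 167 and 364 CPM without.

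CD4 T cells without Foxp3 held little Gzma and some Gzmb, and both were nearly gone from T3. Gzmb stood at 112 CPM in C, 179 in T1 and 3.30 in T3, in 37 of 403, 111 of 729 and 5 of 565 barcodes. The T3 level was lower than that of both other libraries, with a ratio to C of -5.09 (-6.23 to -4.14). The T1 ratio was 0.68 (0.49 to 0.87) and not called. It was called higher after thinning, at 1.25, and without the richest barcode of each library, at 1.16. The latter rested on 862 UMIs in T1 against 200 in C. With each barcode weighted equally it was 1.01. In T3 against C, 5 of the 6 genes tested were called lower and none higher, where 5.61% and 4.24% of all genes tested were. Against T1, 6 of 7 were called lower in T3 and none higher, where 6.59% and 3.91% of all genes were. In T1 against C, 1 of 7 was called higher and none lower, where 2.39% and 1.2% of all genes tested were. With each barcode weighted equally 3 genes were called higher in T1, on the 2-fold limit alone and without an interval.

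The gene called higher in T1 CD4 barcodes was Gzma, at 17.8 CPM in C, 45.3 in T1 and 0.733 in T3. Its T1 ratio was 1.35 (0.89 to 1.83). Shares of barcodes with a UMI were alike in C and T1, 29 of 403 and 52 of 729, so the T1 level came from more UMIs in few barcodes. A barcode with 61 of the 231 T1 UMIs also held 4 UMIs of Kit, a gene of mast cells and innate lymphocytes, and none of Cpa3, Mcpt1 or Fcer1a. Without barcodes of 2 or more UMIs of these 4 genes the ratio was 0.95, and after thinning it was 0.46, neither of which was called. The 2 UMIs in T3, in 0.354% of barcodes, did not exceed the share in T3 B-cell barcodes, 0.792%.

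Ifng, a hallmark product of type 1 helper T cells, stood at 299, 172 and 14.3 CPM in CD4 barcodes. The T3 ratio was -4.39 (-4.89 to -3.92), and the T1 ratio of -0.80 was not called. Nkg7 stood at 191, 175 and 18.7 CPM, with a T3 ratio of -3.35. Fasl stood at 36.3, 42.4 and 16.5 CPM, with a T3 ratio of -1.14. For Fasl and Gzma the thinned counts in T3 and C were too few to be tested, which left 3 called genes after thinning. Prf1 stood at 11.0, 8.63 and 16.5 CPM, so it was again the member that was not lower in T3, with a ratio of 0.59 (-0.12 to 1.31).

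Markers of resting cells and of blood also differed between the CD4 classes. A UMI of Ccr7 or Lef1 was found in 64.3% of CD4 barcodes in C, 59.9% in T1 and 79.1% in T3, and haemoglobin genes stood at 0, 0 and 655 CPM. Leaving out barcodes with haemoglobin UMIs gave T3 ratios of -4.75 for Gzmb and -4.53 for Ifng. Their part in the T3 values was not tested further. Gzmb in T1 CD4 barcodes followed Il10, the gene of an inhibitory cytokine. It was found in 39 of the 68 T1 barcodes with an Il10 UMI (850 CPM) and in 72 of the 661 without (113 CPM). In C, 8 CD4 barcodes held Il10, and 2 of these held Gzmb.

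Regulatory T cells, marked by Foxp3, carried Gzmb and hardly any other member. Gzmb stood at 764 CPM in C (680 to 855), 929 in T1 (890 to 971) and 137 in T3 (103 to 179). It was found in 25 of 62, 158 of 308 and 16 of 85 barcodes, or 21.3%, 35.2% and 5.26% after thinning. T1 and C differed by 0.28 (0.11 to 0.46) on the log2 scale, which was not called. T3 lay below both, with a ratio to C of -2.48 (-2.93 to -2.06) that ranged from -2.90 to -2.45 over the alternatives.

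Few perforin transcripts were counted in the same barcodes. Prf1 had 0 UMIs in C, 6 in T1 and 3 in T3. The absence in C allows a share of up to 4.84% of barcodes with a Prf1 UMI at this depth, which does not limit the share of cells that express it. Gzmk had no UMI in any Foxp3 barcode of the 3 libraries, which in T1 allows a share of up to 0.974% of barcodes with a UMI. Gzma had 2, 85 and 2 UMIs, of which 1 T1 barcode held 44.7%. The T1 ratio of Gzma was 2.93 (1.03 to 6.00), and it was not called after thinning or without barcodes that held B-cell UMIs, at 2.19 and 2.55.

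Ifng and Nkg7 were low in Foxp3 barcodes. Ifng stood at 35.5, 8.63 and 0 CPM, and its T1 ratio of -2.04 rested on 14 UMIs in C and 19 in T1. Without the richest barcode in each library too few UMIs were left to test it. Nkg7 stood at 45.7, 30.9 and 17.7 CPM, from 18, 68 and 7 UMIs. Its T3 ratio of -1.37 was called, but it was 0.47 with each barcode weighted equally, -1.19, not called, without the mitochondrial limit, and -0.22 without the richest barcodes, with too few UMIs left to test. Of 5 genes tested in T1 against C, 1 was called higher and 1 lower, where 3.09% and 2.06% of all genes were. Of 2 tested in T3 against C, both were called lower, where 3.82% of all genes were called lower and 6.27% higher. Of 4 tested in T3 against T1, Gzma and Gzmb were called lower and none higher, where 3.62% and 4.55% of all genes were.

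Gzmb in Foxp3 barcodes went with Il10. Of barcodes with an Il10 UMI, 17 of 24 in C, 119 of 173 in T1 and 3 of 7 in T3 held Gzmb. Of those without, 8 of 38, 39 of 135 and 13 of 78 did. The levels were 1216, 1320 and 287 CPM with Il10 and 275, 358 and 117 CPM without. The share of Foxp3 barcodes with Il10 was 38.7%, 56.2% and 8.24%. Ikzf2, a regulatory T cell transcription factor, did not separate the Gzmb barcodes in the same way: 16 of 44, 95 of 180 and 12 of 50 with Ikzf2, and 9 of 18, 63 of 128 and 4 of 35 without.

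The Foxp3 class held its defining genes in every library, with a summed level of Foxp3, Il2ra, Ctla4 and Ikzf2 of 2442, 2912 and 2851 CPM. Other markers differed: Ccr7 and Lef1 summed to 152, 223 and 606 CPM, in 35.5%, 39.6% and 63.5% of barcodes, and plasma cell markers to 8304, 2166 and 106 CPM. Their part in the Gzmb values was not tested. Mast cells can also make granzyme B. Of the Gzmb UMIs in Foxp3 barcodes, 16 of 301 in C, 16 of 2046 in T1 and 0 of 54 in T3 lay in barcodes with 2 or more UMIs of the mast-cell list (Cpa3, Kit, Mcpt1 and Fcer1a). Haemoglobin genes stood at 5, 2 and 1959 CPM in the class. Without barcodes that held haemoglobin UMIs the T3 ratio of Gzmb was -2.70.

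NK/ILC barcodes, which were few, held more Gzma in both neoplastic libraries than in C, whereas CD8 barcodes held less. Gzma stood at 458 CPM in C, 2843 in T1 and 7618 in T3, in 5 of 73, 10 of 30 and 6 of 14 barcodes. The log2 ratio to C was 2.64 (2.40 to 2.88) in T1 and 4.06 (3.81 to 4.31) in T3, and over the alternatives it ranged from 1.35 to 3.09 and from 2.92 to 4.94. Of 6 genes tested, 3 were called higher in T1 and 4 in T3, and none lower. Of all genes tested, 2.98% were called higher and 2.15% lower in T1, and 6.55% and 3.63% in T3. Between T3 and T1, Gzma and Ifng were called higher and none lower, where 6.85% and 5.69% of all genes were.

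Gzmb in NK/ILC barcodes stood at 274, 782 and 856 CPM and Prf1 at 113, 365 and 487 CPM, so both of these genes were higher here in the neoplastic libraries. The Gzmb ratios were 1.52 in T1 and 1.65 in T3. Without barcodes that held B-cell UMIs the T1 ratio of Gzmb was -0.92. The Prf1 ratios were 1.70 and 2.11. Without those barcodes the T1 ratio of Prf1 was 0.72, and after thinning its ratios were 0.69 in T1 and -1.80 in T3, the last from 1 UMI in T3 against 20 in C.

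Ifng stood at 549, 657 and 1460 CPM in NK/ILC barcodes. A single T3 barcode held 71.3% of the T3 UMIs, and without the richest barcode of each library the T3 ratio of 1.41 became -0.22. Nkg7 was high in all 3 libraries, at 1198, 1827 and 2081 CPM, and not called. Fasl stood at 108, 154 and 117 CPM with overlapping intervals, and was not called. Gzmk had 5 UMIs in T1 and none in C or T3.

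The makeup of the NK/ILC class moved with these values. Eomes, a natural killer cell gene, was found in 4 of 73, 3 of 30 and 3 of 14. In the Eomes barcodes Gzma stood at 1015, 10603 and 21506 CPM. NK and ILC1 markers summed to 1547, 1747 and 2064 CPM over the class. Gamma-delta receptor genes summed to 301, 331 and 50.3 CPM, in 54.8%, 53.3% and 7.14% of barcodes. Haemoglobin genes stood at 2.30, 0 and 1124 CPM, and 6 of the 14 T3 barcodes held at least 3 haemoglobin UMIs. Plasma cell markers stood at 5906 CPM in C against 211 in T1 and 235 in T3, and mononuclear phagocyte markers at 5, 0 and 2786 CPM, where the 166 UMIs of T3 all lay in 1 of its 14 barcodes (7.14%). The part of these differences in the ratios was not tested.

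Barcodes with no lineage UMI made up a large part of the CD3-positive ones, and in T3 they had low granzymes as well. Gzma stood at 165, 259 and 15.0 CPM, Nkg7 at 385, 235 and 76.1 CPM and Ifng at 174, 95.5 and 17.7 CPM. In T3 against C, Gzma, Gzmb, Nkg7 and Ifng were called lower, and Prf1, at 16.1 CPM in T3 against 7.91 in C, was called higher with a ratio of 1.02 (0.49 to 1.55). Of all genes tested there, 10.4% were called lower and 5.36% higher. In T1 against C only Gzmb was called, higher with a ratio of 1.29 (1.12 to 1.46), where 1.52% of all genes were called higher and 3.15% lower. Between T3 and T1, 4 members were called lower and none higher, where 6.51% and 3.82% of all genes were. These barcodes had a median of 4894.5, 5243 and 1391 UMIs, and 750 of the 1457 in T3 held at least 3 haemoglobin UMIs. Ccr7 and Lef1 summed to 285, 427 and 823 CPM in them, and neutrophil markers to 11.5, 2.22 and 1602 CPM. Cd79a, a B-cell gene, was found in 40.9%, 39.5% and 23.8% of them. Genes of the mast-cell list, whose cells can make granzyme B, summed to 165, 450 and 7.63 CPM. In T1, 7 barcodes of the class held 2375 UMIs of Mcpt1. The alternatives were not run for this class. The part of these differences in the values was not tested.

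The classes that supplied each transcript shifted between libraries. In C, CD8 barcodes held 41.0% of the 7951 Gzma UMIs and gamma-delta barcodes 32.9%. In T1 these shares of 4807 UMIs were 22.3% and 22.8%, and in T3, of 898 UMIs, 14.0% and 24.3%, while the 14 NK/ILC barcodes held 50.6%. As given above, the T3 Gzma UMIs of the NK/ILC class lay in few of its barcodes. Those of the CD8 and gamma-delta classes lay mostly in a single barcode each. Barcodes with no lineage UMI held the largest Gzma share in T1, 31.5%, and 17.4% in C and 6.12% in T3. For Gzmb the largest share moved from CD8 barcodes in C (38.7% of 3653 UMIs) to Foxp3 barcodes in T1 (36.9% of 5551). In T3 the largest shares of its 250 UMIs lay in Foxp3 (21.6%), NK/ILC (20.4%), CD8 (18.8%) and gamma-delta barcodes (18.4%). For Gzmk the CD8 share was the largest in every library, at 73.2%, 55.7% and 57.6%. For Ifng the CD4 share was 18.4% in C and 39.8% in T1, and in T3 NK/ILC barcodes held 27.2% of 320 UMIs. Of the 87 T3 UMIs in that class, 25 were left without its richest barcode. In C, barcodes with no lineage UMI held the largest shares of Ifng, 33.7%, and Nkg7, 34.3%.

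**Figure D4:**
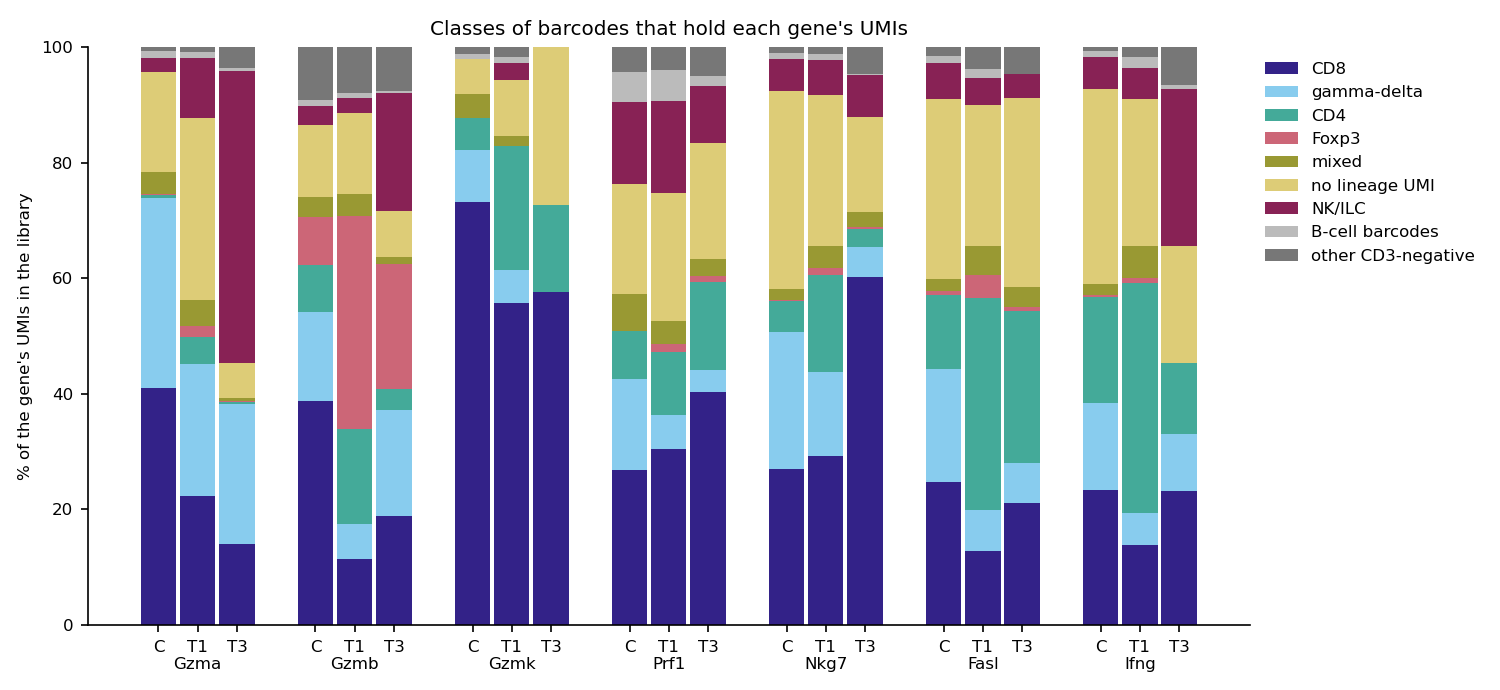
Percent of each gene's UMIs in a library that lay in each class of barcodes, with 1 stacked bar per gene and library. The CD8 share of Gzma UMIs is 41.0% in C and 14.0% in T3 and the NK/ILC share 2.50% and 50.6%, while Foxp3 barcodes hold 36.9% of the Gzmb UMIs of T1.

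Levels calculated from the mix of classes were set beside those observed. With every class held at its level in C, the share of CD3-positive UMIs in each class was taken from T3. The CD3-positive level would then differ from C by 0.03 for Gzma, 0.38 for Gzmb and 0.14 for Ifng on the log2 scale. The observed values were -3.53, -3.45 and -3.56. In T1 the same calculation gave -0.41 for Gzma against an observed -0.93, and 0.44 for Gzmb against an observed 0.56. For Nkg7 in T1 it gave -0.35 against -0.91. For the other members in T3 it gave 0.63 (Gzmk), 0.20 (Prf1), -0.06 (Nkg7) and 0.07 (Fasl), against an observed -2.11, 0.59, -1.85 and -1.45. The makeup within a class also differed between libraries and does not enter this calculation. The part of cell makeup in the T1 and T3 levels was not tested.

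Pairs of killing genes were found together in more barcodes than the product of their single shares gives, in the cases named here. After thinning to 1000 UMIs, 46 of 368 CD8 barcodes in C (12.5%, 9.30% to 16.3%) held both Gzma and Gzmb, where the product gave 13.9 barcodes. In T1 it was 17 of 331 against 3.1. Among gamma-delta barcodes 24 of 331 in C and 9 of 117 in T1 held both, against 4.34 and 1.33. In CD4 barcodes Nkg7 and Ifng were found together in 22 barcodes of C and 26 of T1, against 6.23 and 6.67. Not every pair did so: in gamma-delta barcodes of C, Nkg7 and Ifng were found together in 31, against 31.6. At least 3 of the 7 genes were found in 16.6% of CD8 barcodes in C, 6.95% in T1 and 1.14% in T3. In the NK/ILC class it was 12 of 69, 14 of 30 and 4 of 12 barcodes. These shares depend on the depth of thinning. At 2000 UMIs they were 29.6%, 13.1% and 1.65% in CD8 barcodes, and 17 of 62, 15 of 28 and 6 of 8 NK/ILC barcodes.

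Of 48 further genes of the killing machinery, 47 were in the count tables. They were other granzymes, granule and release proteins, granzyme inhibitors, death ligands and receptors, transcription factors and cytokine receptors, the interferon-gamma receptor and triggering receptors. In CD8 barcodes 39 were tested. In T1, 5 were called lower and 1 higher, and in T3, 11 lower and 3 higher. Of all genes tested, 5.65% were called lower and 0.838% higher in T1, and 7.97% and 3.25% in T3. The medians of the list were -0.52 and -0.73, against -0.25 and -0.14 over all genes tested. Il12rb1, a chain of the interleukin-12 receptor, had ratios of -1.94 in T1 and -3.65 in T3, and its partner Il12rb2 -3.45 in T3. Tnf, a death ligand and cytokine, had ratios of -1.89 and -2.73. Tyrobp, a signalling adaptor of triggering receptors, was lower in T1 at -1.85. Ifngr2, a chain of the interferon-gamma receptor, was higher in both, at 1.30 and 1.23. Gzmm and Tnfrsf10b were higher in T3, at 1.49 and 1.13. None of the 11 granule and release genes was called in T1 and 1 was called lower in T3.

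In CD4 barcodes 5 of 39 machinery genes were called higher in T1 and none lower, including Zeb2 (1.99) and Il12rb2 (1.67), where 2.39% of all genes were called higher and 1.2% lower. In T3, 4 of 37 were called higher, including Tnfrsf10b (1.30) and Lyst (1.07), and 5 lower, where 4.24% and 5.61% of all genes were. The lower genes included Tbx21, the type 1 transcription factor (-2.48), Il12rb1 (-2.37) and the activating receptor gene Klrk1 (-2.30). Gzmc, another granzyme, had 33 CD4 UMIs in T1 and 66 in T3 against 0 in C, but 29 and 66 of these lay in 1 barcode each.

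Among gamma-delta barcodes 4 of 36 machinery genes were called higher in T1 and none lower, where 1.49% and 2.2% of all genes were. Gzmc stood at 261 CPM in T1 against 2.86 in C, with its 203 T1 UMIs in 3 barcodes. Ifngr2 (1.26) and Fas, the receptor of Fas ligand (1.09), were the others named. In T3, 7 of 35 were called lower and 2 higher, where 7.54% and 5.65% of all genes were. Tbx21 had 0 UMIs against 75 in C, Tyrobp a ratio of -3.05 and Tnfsf10, the death ligand TRAIL, -2.50. Ifngr2 (2.08) and the granzyme inhibitor gene Serpinb6b (1.35) were higher.

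In Foxp3 barcodes 3 machinery genes were called higher in each neoplastic library and 2 lower, of 32 tested in T1 and 27 in T3. Over all genes, 3.09% were called higher and 2.06% lower in T1, and 6.27% and 3.82% in T3. Fas was higher at 1.17 in T1 and 2.10 in T3, and the transcriptional cofactor gene Hopx at 1.40 and 1.52. Prdm1 was higher in T1 (1.32) and Il18r1 in T3 (1.15). Klrd1 (-2.10) and Tyrobp (-1.14) were lower in T1, and Tyrobp (-2.50) and Il12rb1 (-1.81) in T3. In NK/ILC barcodes 4 of 29 were called higher in T1 and none lower, and in T3 7 of 30 higher and 1 lower. Over all genes of the class, 2.98% were called higher and 2.15% lower in T1, and 6.55% and 3.63% in T3. Serpinb6b stood at 2.52 and 2.67, Zeb2 at 1.38 and 3.35, and Serpinb9, which protects the killer cell from its own granzyme B, at 1.44 in T1. Serpinb9b had 20 UMIs in T3 and 1 in C. Gzmc had 208 UMIs in C, of which 160 lay in 1 barcode, 209 in T1, where it was called higher with a ratio of 1.32, and none in the 14 T3 barcodes.

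Likeness to each member was measured over 18 points, 6 classes in 3 libraries, as Pearson's r of log2(CPM + 10) among 8837 genes with at least 200 UMIs. The points share libraries and depth, so r is a description. Among the members themselves r was highest between Fasl and Ifng (0.95) and between Gzma and Nkg7 (0.91). The genes that follow are the most alike outside the 7 members. Ccl5, a chemokine gene of effector lymphocytes, led for both Gzma (0.90) and Nkg7 (0.95). Gzma was followed by Adgrg5 (0.90) and Nr4a2 (0.88), and Nkg7 by Ctsw, a granule protease gene (0.95), and Dnajc15 (0.94). Prf1 was most like Serpinb9 (0.95), 1700025G04Rik (0.93) and A930029G22Rik (0.92). Gzmb was most like Mien1 (0.92), Ndufa13 (0.90) and Ccdc12 (0.89). Fasl was most like Luzp1 (0.93), Rcn1 (0.92) and Rnf166 (0.91), and Ifng most like Plekhg3 (0.91), Luzp1 (0.90) and 2610001J05Rik (0.89). No gene tested exceeded 0.68 for Gzmk, where Zfp386, Gm29243 and Tgtp1 led.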

How the data were processed

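CD45-positive cells of 3 colon libraries (C, T1 and T3, 1 each) were measured with the 10x Genomics 3' V3.1 kit, per the labels' protocols. The matrices that the authors deposited hold raw UMI counts, as whole numbers, for each gene in each cell barcode. Cell Ranger 3.1.0, CASAVA 1.8 and Seurat 3.1.4 are listed among the tools in the submitters' processing notes, and GRCm38 is the build. Whether intronic reads were counted is not given in the sources used here.

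From these counts, barcodes with at least 200 genes, at most 20% mitochondrial UMIs and no Scrublet doublet call (scanpy 1.11.5) were kept. That left 5935, 6140 and 4542 of 7903, 8566 and 5779 barcodes, which held 35489195, 37208603 and 15898397 UMIs in all. The doublet caller marked under 0.5% of barcodes in T1 and T3, so its calls could not be relied on there. Counts were summed per class and library and given as CPM with exact Poisson intervals. Shares of barcodes have exact Clopper-Pearson intervals, before and after thinning each barcode to 1000 UMIs, with shallower barcodes left out. Ratios have exact conditional binomial intervals, at a level of 95%. With 1 library per group no test between conditions was possible. A gene without a UMI is given the limit of 3 counts.

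The call rule was tested on simulated data, with Poisson counts drawn for CD8 barcodes and some genes changed by known folds. Real UMIs can gather in a single barcode, which such draws leave out. The test therefore cannot show how the rule performs on these data. Calls were made over all genes with at least 20 UMIs in the pair of libraries. Scripts used Python 3.11.15, numpy 2.4.6, scipy 1.17.1, pandas 2.3.3 and matplotlib 3.10.9. All 7 members are named. From the machinery list up to 3 genes called in each direction per class are named against C, those with the largest absolute ratio, and for each member the 3 genes outside the 7 most like it. The members and lists were chosen with earlier results of these data known. The alternatives changed the filters, the classes, the thinning, the weighting and the limits of the call. Leaving out the richest barcode, shared barcodes or barcodes with mast-cell UMIs were alternatives chosen after seeing the data. The split of CD8 and CD4 barcodes by Ccr7 and Lef1 was also set after seeing the data, and some marker genes are not reported here.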

Additional observations from a re-analysis of the deposited data

Results flagged for a closer look

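Some genes were called in opposite directions in different classes of barcodes under the same comparison. With 1 library per group these differences between classes were not tested. For Gzma in T1 against C the log2 ratio was 1.35 in CD4, 2.93 in Foxp3 and 2.64 in NK/ILC barcodes, and -1.72 in CD8 barcodes. For Gzma in T3 against C it was 4.06 in NK/ILC, -4.82 in CD8 and -4.60 in CD4 barcodes. Between T3 and T1 it was 1.42 in NK/ILC, -3.10 in CD8, -5.95 in CD4 and -2.93 in Foxp3 barcodes. For Gzmb in T1 against C it was 1.52 in NK/ILC and -1.28 in CD8 barcodes. For Gzmb in T3 against C it was 1.65 in NK/ILC, -5.04 in CD8, -5.09 in CD4 and -2.48 in Foxp3 barcodes. For Ifng in T3 against C it was 1.41 in NK/ILC, -3.90 in CD8, -1.26 in gamma-delta and -4.39 in CD4 barcodes, and between T3 and T1 it was 1.15, -2.05 and -3.59 in NK/ILC, CD8 and CD4 barcodes. The NK/ILC class held 73, 30 and 14 barcodes, and the values that change sign under an alternative are given below.

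Gzmb was also found outside the classes compared, in CD3-negative barcodes with 2 or more UMIs of the mast-cell list (Cpa3, Kit, Mcpt1 and Fcer1a). There it stood at 2101 CPM in T1 (1902 to 2316), above the 1175 CPM in C (1049 to 1312). The UMIs came from 4 of 26 barcodes in T1 and 6 of 35 in C, and T3 had 3 such barcodes, none with Gzmb. All of these Gzmb UMIs lay in barcodes that held Cpa3 or Mcpt1 (6 in T1 and 20 in C), and none in barcodes whose only gene of the list was Kit (20 and 15). Of the Gzmb UMIs, 330 of 405 in T1 and 234 of 315 in C lay in 1 barcode each.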

How the results depend on the processing

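No paired analysis was possible because the labels give 1 library per group. Of the counts of members called, 249 values under an alternative stayed within 1.5 times and 45 moved. The other values were single ratios and the shares of barcodes with at least 3 members. Of these together, 779 stayed within their interval, 137 moved and 5 reversed. The shares were compared between thinning to 1000 and to 2000 UMIs, where 8 stayed and 7 moved. Reversed covers called ratios that changed sign, and uncalled ratios that changed sign are among those that moved or stayed. Reversed values were Nkg7 in Foxp3 barcodes, T3 against C, at 0.47 with barcodes weighted equally; Gzmb in NK/ILC barcodes, T1 against C, at -0.92 without barcodes that held B-cell UMIs; Prf1 in NK/ILC barcodes, T3 against C, at -1.80 thinned to 1000 UMIs; and Ifng in NK/ILC barcodes without the richest barcode, at -0.22 in T3 against C and -0.29 in T3 against T1. The causes were not tested. CD8 counts moved under no alternative run.

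Counts that moved are given with the count as reported in brackets. With equal weights a gene was called on the 2-fold limit alone, without an interval. In gamma-delta barcodes, the genes lower in T1 against C numbered 0 (1) with 2 or more UMIs of the defining genes, without doublet calls, with equal weights, without shared barcodes, without mast-cell barcodes, with stricter classes and when thinned. Those lower in T3 against C numbered 6 (2) with equal weights, 5 without the richest barcode and 1 without the mitochondrial limit. Those lower in T3 against T1 numbered 5 (2) with equal weights, 4 when thinned, 1 with 2 or more defining UMIs, without haemoglobin barcodes and without B-cell UMIs, and 0 with stricter classes. Those higher numbered 1 (0) in T3 against T1 with 2 or more defining UMIs, in T1 against C at 1.5-fold and with equal weights, and in T3 against C with stricter classes.

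In CD4 barcodes, the genes higher in T1 against C numbered 2 (1) at 1.5-fold and without the richest barcode, 3 with equal weights and 0 without mast-cell barcodes. When thinned the count stayed at 1, but the gene was Gzmb in place of Gzma. Those lower numbered 1 (0) at 1.5-fold and when thinned. Those lower in T3 against C numbered 3 (5) when thinned, and those higher in T3 against T1 numbered 1 (0) at 1.5-fold and without the mitochondrial limit. In Foxp3 barcodes, the genes higher in T1 against C numbered 0 (1) without B-cell UMIs, with a minimum of 100 UMIs and when thinned, and those lower 0 (1) with that minimum, when thinned and without the richest barcode. Those lower in T3 against C numbered 1 (2) with equal weights, without B-cell UMIs, without the mitochondrial limit, with that minimum, when thinned and without the richest barcode, and those lower in T3 against T1 numbered 1 (2) with that minimum. In NK/ILC barcodes, the genes higher in T1 against C numbered 1 (3) without B-cell UMIs, and those higher in T3 against T1 numbered 1 (2) when thinned and without the richest barcode. The T3 values of the gamma-delta and NK/ILC classes rest on few barcodes, 71 and 14.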

Other observations

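Barcodes above the mitochondrial limit, which enter no comparison, included 451, 455 and 487 CD3-positive ones in C, T1 and T3. In them Gzma stood at 103, 103 and 71.3 CPM and Ifng at 66.1, 44.9 and 129 CPM. The order of the libraries for Ifng was thus not that of the kept CD3-positive barcodes, where it stood at 244, 116 and 20.7 CPM.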
